A study of Mus musculus with 16 samples.

Results

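The genes described here encode enzymes of bile acid synthesis, the transporters that move bile acids across the hepatocyte membrane, and the nuclear receptors that control both. They are Cyp7a1, Cyp8b1, Cyp27a1, Cyp7b1, Cyp39a1, Abcb11, Slc10a1, Nr0b2 and Nr1h4, which were chosen by name as 9 of the 41079 genes in the table of liver RNA counts. All 9 had enough reads to be tested, with at least 114 reads in every library. The livers came from C57BL/6J mice aged 20 to 22 months, with 4 CRE- controls and 4 LKO mice of each sex. Both genotypes carried loxP sites around a stretch of Gcgr, the glucagon receptor gene. LKO mice also carried Cre under the Albumin promoter, which is active in hepatocytes from development on, whereas CRE- mice had no Cre. The model is thus aimed at the receptor of hepatocytes, and which liver cells lost Gcgr was not tested. Between 33268424 and 56488920 reads per liver were counted on genes.

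Bile acids are made from cholesterol in hepatocytes. The classic route starts with Cyp7a1, and the alternative route starts with oxidation of the sterol side chain and continues through Cyp7b1 or Cyp39a1. Bile acids returning from the intestine enter hepatocytes through Slc10a1 and leave into bile through Abcb11. Inside the cell they activate the receptor FXR, the product of Nr1h4, which raises Nr0b2 and Abcb11 and thereby lowers synthesis and raises export.

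Values are CPM, read counts scaled to the library total as normalized by TMM, in the order of replicates 1 to 4. A log2 change is the fitted log2 of the level in LKO mice over that in CRE- mice of the sex. The targeted gene Gcgr, on chromosome 11 of GRCm39 from 120420011 to 120429815, was at 190.4, 193, 127 and 189.6 CPM in male CRE- mice and at 117, 136, 129.9 and 160.3 CPM in male LKO mice. Female CRE- mice had 162, 208, 201 and 180.0 CPM and female LKO mice 48.8, 132, 119 and 93.6 CPM. The female groups did not overlap and the male groups did, with log2 changes of -0.93 in females (SE 0.25, adjusted p = 0.0443 by the quasi-likelihood test of edgeR, with Benjamini-Hochberg adjustment over all genes tested) and -0.37 in males (SE 0.24, adjusted p = 0.671 by edgeR). Reads from Gcgr exons that the deletion leaves in place are counted too, so that residual reads do not measure residual receptor. With 1 mouse left out at a time, the female change of Gcgr was between -1.11 and -0.69 and passed the threshold without male CRE- replicate 2, male CRE- replicate 3 or female LKO replicate 2, and in no other of these fits. All 8 hepatocyte markers were detected in every library, led by Alb. Their summed level was 86929.6, 115389, 139799.8 and 116018 CPM in male CRE- mice, 80046, 88197, 108161 and 89176 CPM in male LKO mice, 147731, 134178, 140158 and 164375 CPM in female CRE- mice and 88343, 118675, 108258 and 124880.2 CPM in female LKO mice. Every female LKO liver was thus below every female control in this sum, and none of the 8 markers passed the edgeR test in either sex, where 2 in males and 2 in females had an unadjusted p under 0.05. DESeq2 called Alb in females, and limma-voom called none in either sex. The sum mostly follows Alb, which went from 95605 ± 6817 to 59095 ± 14254 CPM (mean ± SD, n = 4) in females. Trf had a higher mean in female LKO mice, 28937 ± 14978 against 22931 ± 4448 CPM (mean ± SD, n = 4). In females 7 of the 8 markers had a log2 change below 0 and 1 above. In whole liver, fewer hepatocytes, less RNA per hepatocyte and a lower level of single genes such as Alb cannot be told apart.

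Some libraries stood apart from their groups in ways that bear on bile acid genes. Dbp, an output gene of the circadian clock known to act on Cyp7a1, was at 13.2 CPM or less in 5 libraries and at 107 CPM or more in the other 11. The 5 low libraries were male LKO replicate 3, female CRE- replicates 1 and 2, and female LKO replicates 1 and 4. Bmal1, which peaks in the opposite phase, was at 21.2, 19.9, 28.8, 17.4 and 25.8 CPM in these 5 and at most 5.56 CPM in the others. Of 17 clock genes 16 were in the table, and none passed the edgeR test in either sex, with 0 in males and 1 in females at an unadjusted p under 0.05. DESeq2 and limma-voom each called 1 of them, Per1, in females. The low libraries were 0 of 4 in male CRE-, 1 of 4 in male LKO, 2 of 4 in female CRE- and 2 of 4 in female LKO mice. Male LKO replicate 1 carried transcripts that were otherwise seen in females, with Sult2a1 at 116 CPM against at most 0.267 CPM in the other 7 males and Cux2 at 60.4 CPM against at most 1.72 CPM. Its level of the male-biased Mup20 was 233 CPM, against 1840.2 CPM or more in the other males. Dbp, Bmal1, Sult2a1, Cux2 and Mup20 were named after their values were seen. Results that change when such a library is left out are given with and without it.

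Across the set, Cyp39a1 rose in male LKO mice and Slc10a1 fell in female LKO mice. By edgeR, no other gene of the 9 had an adjusted p below the threshold of 0.05 in either sex. In males 1 of 9 genes was called, against 0.454% of the 16742 genes tested, and in females 1 of 9, against 4.24%. An unadjusted p under 0.05 was found for 3 of 9 in males and 4 of 9 in females, against 9.53% and 21.4% of genes tested. DESeq2 called 3 of the 9 in males, Cyp7b1, Cyp39a1 and Nr0b2, where it called 1.72% of its genes, and 3 in females, Cyp39a1, Abcb11 and Slc10a1, where it called 10.2%. With limma-voom 2 of the 9 were called in males, Cyp7b1 and Cyp39a1, against 0.884% of genes, and 2 in females, Abcb11 and Slc10a1, against 11.8%. CPM ranges of LKO and CRE- mice did not overlap for Cyp39a1, Cyp7b1 and Nr0b2 in males, all higher, against 6.49% of genes tested. In females they did not overlap for Cyp39a1, which was higher, and for Slc10a1 and Abcb11, which were lower, against 11.6% of genes tested. The median log2 change of the 9 genes was 0.29 in males, where the median of all genes tested was -0.01, and -0.39 in females, where it was 0.04.

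**Figure D1:**
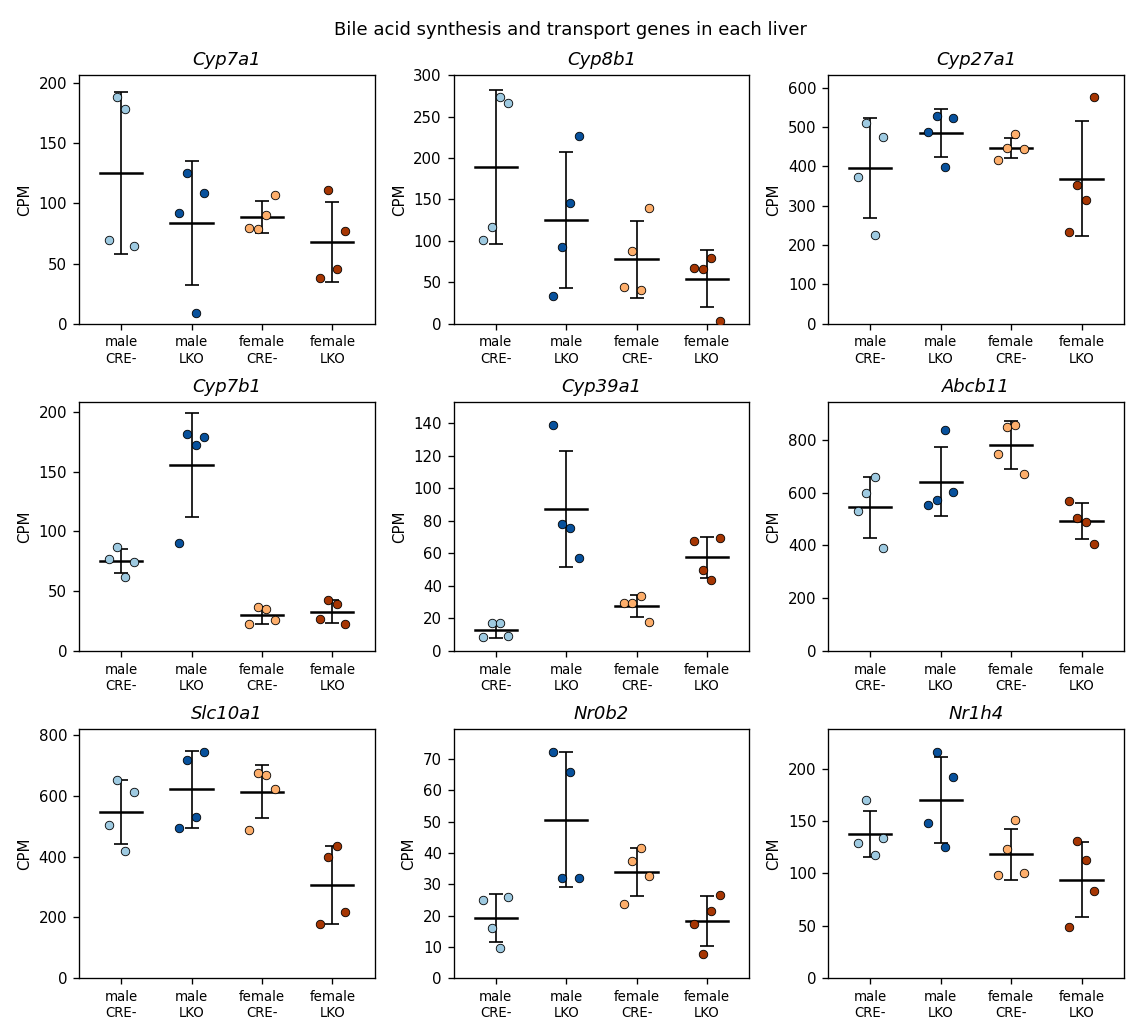
Level of each of the 9 genes in each liver, in CPM after TMM normalization, by sex and genotype, with points for mice, long bars for group means and error bars for the SD (n = 4). Cyp39a1 was above every control in every LKO mouse of its sex, and Slc10a1 and Abcb11 were below every control in every female LKO mouse.

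Cyp7a1, the rate-limiting enzyme of the classic route, lies on chromosome 4 from 6265612 to 6275632. It was at 69.2, 188, 178 and 64.5 CPM in male CRE- mice and at 91.8, 125, 8.77 and 109 CPM in male LKO mice. Controls fell into a high and a low pair, and male LKO replicate 3, one of the libraries with low Dbp, was far below the other LKO mice. The groups overlapped, and the log2 change was -0.58 (SE 0.56, adjusted p = 0.780 by edgeR), -0.20 without male LKO replicate 3 and -0.84 without male LKO replicate 2. Female CRE- mice were closely grouped at 79.2, 79.0, 90.7 and 107 CPM, and female LKO mice were spread on both sides of them at 37.9, 111, 45.8 and 76.8 CPM. The female log2 change was -0.39 (SE 0.56, adjusted p = 0.742 by edgeR), and ranged from -0.73 without female LKO replicate 2 to -0.18 without female LKO replicate 1. Differences in Cyp7a1 were therefore within the spread between mice in both sexes.

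Cyp8b1, the sterol 12α-hydroxylase that sets the share of cholic acid, lies on chromosome 9 from 121743422 to 121745371. Its levels were 100.5, 117, 273 and 266 CPM in male CRE- and 33.8, 92.8, 146 and 227 CPM in male LKO livers. Female CRE- livers had 43.9, 87.5, 40.8 and 139.6 CPM and female LKO livers 67.7, 66, 79.7 and 3.30 CPM. The lowest value of all 16 livers was that of female LKO replicate 4, while the other 3 female LKO mice lay within the range of their controls. That mouse also had the highest acute-phase sum of all livers, 23223 CPM over 8 genes, and a role of the acute-phase state in its Cyp8b1 level was not tested. Log2 changes were -0.60 in males (SE 0.70, adjusted p = 0.819 by edgeR) and -0.52 in females (SE 0.70, adjusted p = 0.721 by edgeR), and ranged from -1.07 to -0.30 and from -0.79 to -0.07 with 1 mouse left out. The female value was -0.13 without female LKO replicate 4 and -0.07 without female CRE- replicate 4, the highest control. Neither sex showed a difference larger than the spread between mice.

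Cyp27a1, the mitochondrial sterol 27-hydroxylase that opens the alternative route, lies on chromosome 1 from 74752311 to 74777056. It was at 395 ± 128 CPM (mean ± SD, n = 4) in male CRE- mice, 484 ± 60.3 CPM (mean ± SD, n = 4) in male LKO mice, 447 ± 26 CPM (mean ± SD, n = 4) in female CRE- mice and 368 ± 147 CPM (mean ± SD, n = 4) in female LKO mice. The female controls differed little among themselves, from 417 to 481 CPM, while female LKO mice ranged from 232 to 575 CPM and overlapped them. The log2 change was 0.29 in males and -0.28 in females, with adjusted p of 0.766 and 0.599 by edgeR, and ranged from 0.08 to 0.44 and from -0.57 to -0.09 with 1 mouse left out.

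Cyp7b1, the oxysterol 7α-hydroxylase of the alternative route, lies on chromosome 3 from 18126108 to 18298054 and is known as a male-biased gene of mouse liver. Male CRE- mice had 77.3, 86.8, 62.2 and 74.8 CPM, and male LKO mice 90.3, 181, 172 and 179 CPM. Every male LKO mouse was above every male control, but replicate 1 was close to the controls while the other 3 were far above them. The male log2 change was 1.05 (SE 0.25, adjusted p = 0.10 by edgeR), which did not pass. Without male LKO replicate 1, the library with female-biased transcripts, it was 1.22 and passed (adjusted p = 0.0349 by edgeR). Female values were lower and overlapped between genotypes, at 22.4, 37.1, 34.8 and 25.7 CPM in CRE- and 26.4, 43.0, 39.7 and 22.9 CPM in LKO mice, with a log2 change of 0.14 (SE 0.25, adjusted p = 0.809 by edgeR). In controls, Cyp7b1 was lower in every female than in every male, by a log2 change of -1.33 (SE 0.26, adjusted p = 0.0193 by edgeR). That call was lost without male CRE- replicate 1, female CRE- replicate 1 or female CRE- replicate 4, where the log2 change was -1.32, -1.21 and -1.30.

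Cyp39a1 encodes an oxysterol 7α-hydroxylase that acts on 24-hydroxycholesterol, a cholesterol product formed mainly in the brain. The gene lies on chromosome 17 from 43978263 to 44062322 on the plus strand. In males it was at 8.50, 17, 17.4 and 9.03 CPM in CRE- livers and at 139, 78.2, 75.3 and 57.0 CPM in LKO livers. All 4 LKO mice were above all controls with a wide gap between the groups, and replicate 1 was the highest. Cyp39a1 rose in males, with a log2 change of 2.75 (SE 0.32, adjusted p = 0.000696 by edgeR), a 6.72-fold difference. The change was between 2.42 and 2.91 with each mouse left out, and it passed in all 16 of those fits. Every female control was above every male control, at 29.4, 29.2, 33.8 and 18 CPM, and female LKO mice had 67.5, 49.9, 43.6 and 69.1 CPM, again above every control. The female log2 change was 1.06 (SE 0.30, adjusted p = 0.0570 by edgeR), just outside the threshold. It passed without male CRE- replicate 3, male LKO replicate 1 or female LKO replicate 2, where adjusted p by edgeR was 0.0470, 0.0338 and 0.0485. DESeq2's Wald test also called the female change, with a log2 change of 1.07 (adjusted p = 0.0122), where adjusted p ranged from 0.0122 to 0.0744 over 8 other settings of the analysis. The difference between the sexes, female minus male, was -1.69 in log2 (SE 0.43, adjusted p = 0.148 by edgeR). Averaged over the sexes the log2 change of Cyp39a1 was 1.90 (SE 0.22, adjusted p = 0.000182 by edgeR). Gm25783 and Gm41581 lie within its span and had at most 0.0994 CPM in any library.

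**Figure D2:**
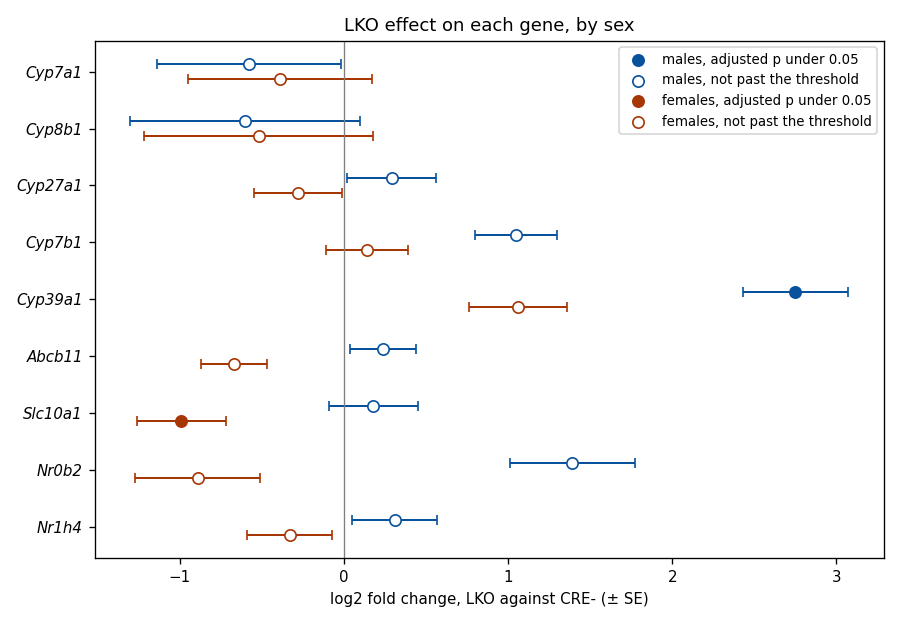
Log2 change of LKO against CRE- mice for each of the 9 genes (horizontal axis, with SE as error bars), in males and females, from the edgeR fit of all 16 libraries with n = 4 per group. Filled points passed an adjusted p of 0.05, which were Cyp39a1 in males at 2.75 and Slc10a1 in females at -0.99.

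Abcb11 encodes the bile salt export pump of the canalicular membrane and lies on chromosome 2 from 69068626 to 69172960. Male CRE- livers had 532, 598, 658 and 390.2 CPM and male LKO livers 554, 574, 836 and 601 CPM, with overlapping ranges and the highest value in LKO replicate 3. The male log2 change was 0.24 (SE 0.20, adjusted p = 0.744 by edgeR). Female CRE- livers had 747, 848, 858 and 669.7 CPM. Female LKO livers had 568, 506, 489 and 405 CPM, each of them below the lowest control. The female log2 change was -0.67 (SE 0.20, adjusted p = 0.0670 by edgeR) and did not pass. It was between -0.72 and -0.58 with each mouse left out, and DESeq2's Wald test gave -0.65 (adjusted p = 0.0154), past the threshold. Over the 8 other settings of the analysis adjusted p for Abcb11 in females was 0.00932 to 0.111.

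Slc10a1 encodes NTCP, the sodium-dependent carrier that takes bile acids up from portal blood, and lies on chromosome 12 from 80999959 to 81015479. It was at 505, 652, 419.7 and 613 CPM in male CRE- mice and at 493, 716, 531 and 744 CPM in male LKO mice, with overlapping ranges and a log2 change of 0.18 (SE 0.27, adjusted p = 0.860 by edgeR). Female CRE- mice had 487, 674, 669 and 623 CPM and female LKO mice 177, 399, 435 and 218 CPM. All 4 female LKO mice were below all controls, and replicates 1 and 4, the libraries with low Dbp, were lower than replicates 2 and 3. The part of the clock phase in this was not tested. Slc10a1 fell in females, to 0.502 of the control level, a log2 change of -0.99 (SE 0.27, adjusted p = 0.0486 by edgeR). The adjusted p was close to the threshold. With 1 mouse left out at a time the log2 change was between -1.21 and -0.78 and adjusted p by edgeR between 0.0298 and 0.143. It passed without male CRE- replicate 3, female LKO replicate 2 or female LKO replicate 3 and in no other of the 16 fits. Without the lowest mouse, female LKO replicate 1, the log2 change was -0.78. Adjusted p was 0.00883 to 0.134 over 8 other settings of the analysis, 3 of which passed. The difference between the sexes, female minus male, was -1.18 in log2 (SE 0.38, adjusted p = 0.209 by edgeR), so the fall was not shown to differ from the male value.

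Markers of macrophages and neutrophils had higher means in female LKO than in female CRE- livers. The macrophage sums of female LKO replicates 2 and 4 lay within the range of their controls. All 7 macrophage markers had an unadjusted p under 0.05 in females, as had 21.4% of all genes tested, with a median log2 change of 1.40, and Adgre1, which encodes the macrophage surface protein F4/80, passed at 2.15 (SE 0.57, adjusted p = 0.0451 by edgeR). The summed level of the 7 markers, led by Cd5l, was 638, 509, 555 and 967 CPM in female CRE- and 3169, 781, 1845 and 899 CPM in female LKO mice. Adgre1 was at 334, 45.2, 99.4 and 64.9 CPM in the female LKO mice, and its log2 change was 1.21 without replicate 1 and no longer passed, as in 10 of the 16 fits with 1 mouse left out, where it was from 1.21 to 2.26. Of 5 neutrophil markers 4 were tested, led by S100a9, with Ly6g too low to test, and the sum of the 5 was 34.5, 19, 16.2 and 15.9 CPM in female CRE- and 102, 41.9, 57.4 and 492 CPM in female LKO mice. Retnlg passed in females with a log2 change of 2.86 (SE 0.69, adjusted p = 0.0331 by edgeR), and lost the call without any 1 of the female controls or without female LKO replicate 1 or 4, where the lowest value was 2.04. DESeq2 called 6 of the 7 macrophage markers and 4 of the neutrophil markers in females, against 10.2% of its genes, and none of either in males. In males the macrophage sum was 734, 423, 246 and 1072 CPM in CRE- and 813, 514, 592 and 510.3 CPM in LKO mice, and the neutrophil sum was 70.6, 19.2, 14.9 and 129 CPM and 25.9, 15.5, 12.1 and 11.9 CPM. The sum of 8 acute-phase genes, led by Hp, was 8844, 2714, 2854 and 5716 CPM in female CRE- and 8619, 5775, 5045 and 23223 CPM in female LKO mice, with a median log2 change of 1.28 in females, -0.88 in males, and no gene called by edgeR, where 1 in males and 5 in females had an unadjusted p under 0.05, none called by DESeq2, and Il1b called by limma-voom in females. The part of these cells, of the lower hepatocyte marker sum and of the acute-phase genes in the lower Slc10a1 and Abcb11 of female LKO mice was not tested.

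Nr0b2 encodes SHP, a receptor without a DNA-binding domain that represses Cyp7a1 and Cyp8b1, and lies on chromosome 4 from 133280687 to 133283997. Male CRE- mice had 25.1, 16.1, 9.72 and 26 CPM, and male LKO mice 72.3, 32.0, 66 and 32.0 CPM. Every male LKO mouse was above every male control, with replicates 1 and 3 well above replicates 2 and 4. The log2 change in males was 1.39 (SE 0.38, adjusted p = 0.153 by edgeR), which did not pass, whereas DESeq2's Wald test gave 1.38 (adjusted p = 0.0292), the lowest of a range of 0.0292 to 0.271 over 8 other settings. Female CRE- mice had 23.8, 37.5, 41.5 and 32.7 CPM and female LKO mice 17.3, 7.70, 21.4 and 26.6 CPM. All 4 female LKO mice were below the mean of their controls, but the highest LKO mouse was above the lowest control. Female log2 change was -0.89 (SE 0.38, adjusted p = 0.181 by edgeR). The effects of genotype thus had opposite signs, and the difference, female minus male, was -2.28 in log2 (SE 0.54, adjusted p = 0.140 by edgeR). DESeq2's Wald test called this difference, at -2.25 (adjusted p = 0.00718), and none of the 6 other alternatives did, over which the range with DESeq2 was 0.00718 to 0.156.

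Nr1h4 encodes FXR, the receptor that bile acids activate, and lies on chromosome 10 from 89290096 to 89369484. It was at 138 ± 22.3 CPM (mean ± SD, n = 4) in male CRE-, 170.3 ± 41.3 CPM (mean ± SD, n = 4) in male LKO, 118 ± 24.5 CPM (mean ± SD, n = 4) in female CRE- and 94.1 ± 36.0 CPM (mean ± SD, n = 4) in female LKO mice. Its ranges overlapped between genotypes in both sexes. The log2 change was 0.31 in males and -0.33 in females, with adjusted p of 0.749 and 0.520 by edgeR, and ranged from 0.16 to 0.43 and from -0.53 to -0.09 with 1 mouse left out. The lowest liver was female LKO replicate 1 at 48.7 CPM.

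Whether the LKO effect differed between the sexes was tested as an interaction for all 9 genes. None passed an adjusted p of 0.05 in edgeR, and 0% of all genes tested did. Unadjusted p was under 0.05 for 5 of 9 genes, Cyp7b1, Cyp39a1, Abcb11, Slc10a1 and Nr0b2, against 16% of genes tested, and in each of the 5 the female effect was lower than the male. The differences, female minus male in log2, were -0.91 for Cyp7b1 (SE 0.36, adjusted p = 0.250 by edgeR) and -0.90 for Abcb11 (SE 0.28, adjusted p = 0.201 by edgeR), beside the values given with Cyp39a1, Slc10a1 and Nr0b2. DESeq2 called 2 of the 9, Cyp39a1 and Nr0b2, where it called 2.25% of its genes, and limma-voom with sample quality weights called Cyp39a1 alone, against 0.173%. Averaged over the sexes 1 of 9 genes was called, Cyp39a1, against 2.86% of genes tested. DESeq2 and limma-voom called Cyp7b1 as well, 2 of 9, against 5.30% and 5.12%. Cyp7b1 followed at 0.59 (SE 0.18, adjusted p = 0.0903 by edgeR), and passed without male LKO replicate 1 at 0.68 (adjusted p = 0.0355 by edgeR). The average change of the other 7 was between -0.56 for Cyp8b1 and 0.25 for Nr0b2.

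Between female and male controls 1 of 9 genes was called, Cyp7b1, against 0.920% of genes tested, and DESeq2 and limma-voom also called Cyp39a1, 2 of 9, against 2.69% and 1.97%. The remaining differences, female minus male in log2, ran from -1.28 for Cyp8b1 to 1.09 for Cyp39a1. Cyp39a1 (adjusted p = 0.124) and Abcb11 (0.52, adjusted p = 0.288) did not pass by edgeR. In both, every female control was above every male control. The share of all genes whose control ranges do not overlap is not given, so this separation cannot be set against it. This comparison shares its controls with the comparisons of genotype, so that a high or low control group enters both.

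Levels of different genes were compared per kb of exon length. In male CRE- livers the order from high to low, as mean ± SD CPM per kb over 4 mice, was Slc10a1 at 249 ± 48.0, Cyp27a1 at 165 ± 53.2, Cyp8b1 at 97.0 ± 47.8, Abcb11 at 92.9 ± 19.6 and Nr1h4 at 53.0 ± 8.58. Below them came Cyp7b1 at 30.9 ± 4.15, Cyp7a1 at 29.9 ± 16.1, Nr0b2 at 15 ± 6.06 and Cyp39a1 at 4.18 ± 1.57. Ranges of neighbours in this order did not overlap between Abcb11 and Nr1h4, between Nr1h4 and Cyp7b1, and between Nr0b2 and Cyp39a1, and overlapped for the other pairs. In male LKO livers Cyp39a1 was at 28.1 ± 11.5 CPM per kb and overlapped both of its neighbours, Nr0b2 at 39.4 ± 16.8 and Cyp7a1 at 20.1 ± 12.4. Slc10a1 was the highest in female CRE- livers at 279 ± 39.7 CPM per kb, above Cyp27a1 at 186 ± 10.9 and Abcb11 at 133 ± 15.2 with no overlap. In female LKO livers it was at 140.0 ± 58.6 CPM per kb, second to Cyp27a1 at 154 ± 61.1, and the ranges of these genes overlapped. Cyp39a1 and Cyp7b1 were the lowest in female controls, at 8.88 ± 2.17 and 12.3 ± 2.90 CPM per kb.

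Relations within groups were examined for 6 pairs, as correlations of log2 CPM after each group mean was subtracted. Nr0b2 and Cyp7a1, the repressor and its target, had a Pearson r of -0.54 over 16 livers (permutation test, two-sided, p = 0.0453, 0.272 after Benjamini-Hochberg adjustment over the 6 pairs) and a Spearman rho of -0.61 (permutation p = 0.0456, adjusted 0.274). Without the 2 livers farthest from the median of Nr0b2, female LKO replicate 2 and male CRE- replicate 3, r was -0.48. Livers with more Nr0b2 than their group mean thus tended to have less Cyp7a1, but the relation did not pass the adjustment. For Nr0b2 with Cyp8b1 r was -0.44 and rho -0.46 (permutation p = 0.198 and 0.123, adjusted 0.594 and 0.368), and r was -0.36 without the same 2 livers. Nr0b2 with Abcb11 gave r of -0.25 and rho of -0.31 (permutation p = 0.436 and 0.324, adjusted 0.654 and 0.616), and r was -0.08 without these 2. Nr1h4 with Nr0b2 gave r of -0.29 and rho of -0.26 (permutation p = 0.409 and 0.411, adjusted 0.654 and 0.616), with r of -0.14 without female LKO replicates 1 and 2. Cyp7a1 with Cyp8b1 gave r of -0.15 and rho of -0.04 (permutation p = 0.590 and 0.891, adjusted 0.708 and 0.979), with r of -0.10 without male LKO replicates 2 and 3. Because Dbp fell into separate clusters, its relation with Cyp7a1 was taken over the 11 livers with high Dbp alone, where r was -0.03 and rho -0.01 (permutation p = 0.870 and 0.979, adjusted 0.870 and 0.979), and r was 0.05 without male CRE- replicate 3 and female LKO replicate 3. The 5 livers with low Dbp were too few for a correlation.

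For each gene, the 3 genes of the 16742 with the highest Pearson r of log2 CPM over the 16 livers are named as a description, without a test. Cyp39a1 was most like Bhlha15 (0.87, 0.20 with group means subtracted), Tdrkh (0.87, 0.56) and Adm2 (0.87, 0.20), so that most of this likeness lay between groups. Cyp7b1 was most like the male-biased genes Cyp2d9 (0.94, 0.79 with group means subtracted) and Mup20 (0.93, 0.81) and Zfp979 (0.93, 0.69), and part of the likeness was also present within groups. The nearest genes to Slc10a1 were Fabp1 (0.95, 0.98 with group means subtracted), Khk (0.95, 0.97) and Slc35d2 (0.95, 0.88), where Fabp1 encodes the liver fatty acid-binding protein and Khk the fructose-phosphorylating kinase. Slc10a1 and Nr1h4 had an r of 0.87 with group means subtracted, the highest among the 36 pairs of the 9 genes, and Cyp7b1 and Slc10a1 followed at 0.79. The lowest of these pairs was Cyp27a1 with Abcb11 at -0.63. Cyp7a1 was most like Gm30286 (0.84, 0.84 with group means subtracted), Alas1 (0.82, 0.90) and Hoxb5 (0.78, 0.79), of which Alas1 encodes the first enzyme of heme synthesis. Cyp8b1 was most like Klhdc7a (0.87, 0.81 with group means subtracted), Gm12909 (0.87, 0.84) and Mup3 (0.85, 0.80). The genes nearest to Cyp27a1 were Rpusd3 (0.93, 0.92 with group means subtracted), Sra1 (0.92, 0.90) and Zfand2b (0.91, 0.91). Those nearest to Abcb11 were Slc39a8 (0.88, 0.81 with group means subtracted), Acnat1 (0.87, 0.79) and Mreg (0.87, 0.72), and those nearest to Nr0b2 were Necab2 (0.78, 0.75 with group means subtracted), Cfdp1 (0.78, 0.44) and Cct6b (0.77, 0.57). Nr1h4 was most like Srsf4 (0.93, 0.89 with group means subtracted), Gm42293 (0.93, 0.90) and Plpp3 (0.93, 0.94).

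Other genes of the pathway were examined from lists of further enzymes, transporters and regulators. Of 15 further bile acid enzymes 3 fell in females, where 4.24% of all genes tested were called. In males none was called by edgeR, 1 had an unadjusted p under 0.05, and DESeq2 and limma-voom called none. The list had a median log2 change of -0.49 in females and 0.17 in males, beside 0.04 and -0.01 over all genes tested. In females 14 of the 15 were below 0. Means are given from female CRE- to female LKO mice. Baat, which joins bile acids to taurine, went from 267 ± 36.2 CPM (mean ± SD, n = 4) to 158 ± 29.3 CPM (mean ± SD, n = 4), a log2 change of -0.75 (SE 0.18, adjusted p = 0.0294 by edgeR). Slc27a5, the bile acyl-CoA synthetase that acts before Baat, went from 1132 ± 151 CPM (mean ± SD, n = 4) to 663 ± 116 CPM (mean ± SD, n = 4), a log2 change of -0.77 (SE 0.19, adjusted p = 0.0335 by edgeR). Akr1d1, the 5β-reductase of the sterol ring, went from 284 ± 61.4 CPM (mean ± SD, n = 4) to 148 ± 52.9 CPM (mean ± SD, n = 4), a log2 change of -0.93 (SE 0.25, adjusted p = 0.0459 by edgeR). All 4 female LKO mice were below all controls for each of these 3 genes. DESeq2 and limma-voom called these 3 and also Hsd3b7 and Scp2, 5 of 15, against 10.2% and 11.8% of genes. With 1 mouse left out at a time, Baat lost the call in 5 of 16 fits, Slc27a5 in 7 and Akr1d1 in 12. Their changes in those fits lay between -0.75 and -0.63, -0.79 and -0.67, and -1.04 and -0.72. In males the log2 changes were 0.24 for Baat, -0.37 for Slc27a5 and -0.42 for Akr1d1. Averaged over the sexes Slc27a5 had a log2 change of -0.57 and Akr1d1 of -0.68 (adjusted p = 0.0271 and 0.0474 by edgeR), and these calls were lost in 7 and 12 of the 16 fits, at values from -0.58 to -0.53 and from -0.72 to -0.59. Cyp2c70, which makes the muricholic acids of mice, was higher in female than in male controls by 1.27 (SE 0.25, adjusted p = 0.0193 by edgeR), and that call was lost without male CRE- replicates 1 or 3 or female CRE- replicates 1 or 4, each left out alone, with values from 1.14 to 1.29.

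Of 14 further bile transporters 13 were tested, and Slc51a, an export subunit, had no reads in any library. None was called in either sex by edgeR, where 3 had an unadjusted p under 0.05 in males and 1 in females, and log2 changes ran from -2.36 to 1.94 in males and from -1.25 to 0.60 in females. DESeq2 called none in either sex, and limma-voom called Slc10a2 in females. Slco1a1, an organic anion carrier that is male-biased in mouse liver, was at 21, 9.02, 247 and 19.4 CPM in male CRE- and 0.257, 422, 383 and 330.0 CPM in male LKO mice and at 0.273 CPM or less in all females. Male LKO replicate 1 was therefore at the level of females, and the other 3 male LKO mice were above every male control. Slco1a1 differed between the controls of the 2 sexes by -8.70 in log2 (SE 1.64, adjusted p = 0.0171 by edgeR), and lost that call without any 1 of the female controls, with values from -9.04 to -8.54. Without male CRE- replicate 3, the control at 247 CPM, the log2 change of Slco1a1 was -6.56 and passed (adjusted p = 0.0406 by edgeR). By limma-voom it was -6.77 and did not pass (adjusted p = 0.395).

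Of 17 further regulators 15 were tested, with Gpbar1 and Fgf15 below the filter. In females Nr5a2, which encodes LRH-1, an activator of Cyp7a1 and Cyp8b1, went from 69.4 ± 9.99 CPM (mean ± SD, n = 4) to 46.3 ± 6.51 CPM (mean ± SD, n = 4), a log2 change of -0.58 (SE 0.16, adjusted p = 0.0483 by edgeR). All 4 female LKO mice were below all controls for Nr5a2, and the call was near the threshold, lost in 12 of 16 fits that left out a mouse, at values from -0.66 to -0.50. The 15 regulators had a median log2 change of -0.12 in males and -0.27 in females.

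Lists of other liver cells and states gave the setting of these values. For the list counts here and above, unadjusted p was under 0.05 for 9.53% of all genes tested in males and 21.4% in females. DESeq2 called 1.72% of its genes in males and 10.2% in females, and limma-voom called 0.884% and 11.8%. Averaged over the sexes, DESeq2 called 5.30% and limma-voom 5.12%. The median log2 changes in males and females were -0.22 and -0.37 for hepatocyte markers and 0.24 and 0.39 for 5 endothelial markers, led by Stab2. The medians were -0.62 and 0.00 for 6 stellate cell and fibroblast markers, led by Dcn, -0.05 and 0.15 for 6 T and NK cell markers, led by Nkg7, and 0.02 and 0.76 for 5 B cell markers, led by Jchain. No gene of these 5 lists was called in either sex by edgeR. Unadjusted p was under 0.05 for 3 genes in males, 2 of hepatocytes and 1 of stellate cells, and 5 in females, 2 of hepatocytes, 2 of endothelium and 1 of B cells. DESeq2 called Alb and Lyve1 and limma-voom Lrat, all in females. For 7 cholangiocyte markers, led by Spp1, the medians were 0.56 and 0.24. Neutrophil markers had a median of -1.87 in males, with none called by edgeR, DESeq2 or limma-voom and 4 of 4 at an unadjusted p under 0.05, and 3.02 in females. Among 8 pericentral genes, led by Cyp2e1, none was called in either sex by edgeR, DESeq2 or limma-voom, none had an unadjusted p under 0.05, and the medians were 0.04 and 0.48. Among 7 periportal genes, led by Ass1, the medians were -0.96 and -1.05, and Cyp2f2 fell in females, with a log2 change of -2.42 (SE 0.46, adjusted p = 0.0149 by edgeR), with a male value of -0.69 (SE 0.44, adjusted p = 0.660 by edgeR) and an average of -1.56 (adjusted p = 0.0140, past the threshold of the edgeR test). It passed in all 16 fits with 1 mouse left out. Of the 7 periportal genes 4 in males and 5 in females had an unadjusted p under 0.05. DESeq2 and limma-voom called Sds in males, both called Cyp2f2 and Hal in females, where limma-voom added Gls2 and Ass1, and both called these 5 genes when averaged over the sexes. Clock genes, led by Tef, had medians of -0.17 and -0.04. Of 9 sex-biased liver genes, led by Mup20, none was called between genotypes by edgeR, where 3 in males and 1 in females had an unadjusted p under 0.05. DESeq2 called Cux2 and Sult2a1 in males and Cyp2d9 in females, and limma-voom called Cyp2d9 in females. Among males, Cux2 and Sult2a1 were high in LKO replicate 1 alone, at 60.4 and 116 CPM. Their male calls are given only with that library in the fit. By edgeR 6 were called between the controls of the 2 sexes. Mup20 and Cyp2d9, male-biased genes, had log2 changes of 1.65 and 0.90 in male LKO mice (adjusted p = 0.568 and 0.525 by edgeR) and were at 233, 10149, 18454 and 12301 CPM and 518, 1430.4, 1356 and 1517 CPM. Krt19, a marker of cholangiocytes, was called between the controls of the sexes, at 1.66 (SE 0.35, adjusted p = 0.0300 by edgeR), and lost the call without any 1 of the 8 controls, where the lowest value was 1.49.

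Several of the calls above also depended on the settings of the analysis. With each sex fitted alone, the female calls of Gcgr, Baat, Slc27a5, Akr1d1, Nr5a2, Adgre1 and Retnlg were lost, at adjusted p of 0.132, 0.0974, 0.102, 0.131, 0.115, 0.0857 and 0.0634 by edgeR. With no filter on low counts, those of Gcgr, Slc27a5, Akr1d1 and Nr5a2 were lost at 0.0545, 0.0617, 0.0538 and 0.0690, the average of Slc27a5 at 0.0579 and the difference of Krt19 between controls at 0.0551. Upper-quartile normalization ended the female calls of Gcgr, Akr1d1, Nr5a2 and Adgre1 at 0.0707, 0.0581, 0.0502 and 0.0518 and the average of Akr1d1 at 0.0631. With at least 10 counts in every library Gcgr in females was at 0.0506. The log2 changes of these genes kept their direction.

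Promoter sequences of RefSeq (build GRCm38.p6, 250 bases before to 50 after the start site) were held for 6 of the 9 genes, Abcb11, Cyp27a1, Cyp8b1, Nr0b2, Nr1h4 and Slc10a1. Each matched 1 place in GRCm39 exactly, and coordinates are of that match. The start site of the window lay at the 5′ end of the annotated gene in 4 of them, 383 bases from it in Cyp27a1 and 26964 bases from it in Nr1h4, whose window is thus not that of the outermost start. The 6 motifs named next were searched on both strands. They were AGGTCA, the half-site bound by many nuclear receptors, AGGNCANTGNCCT, an inverted repeat of that half-site with 1 base between that FXR is known to bind, TCAAGG, the core of LRH-1 sites, CACGTG, the E-box, TGACG, a half-site of the cAMP response element, and TTANGTAA, the D-box. Of 32851 promoter windows in the table, 16.3% held AGGTCA, 0.0883% the inverted repeat, 14.4% TCAAGG, 7.15% CACGTG, 20.8% TGACG and 2.32% TTANGTAA. The inverted repeat was found in Abcb11, where it overlaps a match to AGGTCA on the opposite strand, and in 29 windows in all. Nr0b2 held TCAAGG at 2 places and CACGTG at 1, Nr1h4 held AGGTCA, and Cyp8b1 held TGACG after its start site. Counted from the start site, the matches of Abcb11 began at -63 and -56, and those of Nr0b2 at -195, -68 and -35. No match to the 6 motifs was found in the searched windows of Slc10a1 and Cyp27a1, which says only that these letters were not there. For Slc10a1 2 windows were held, and only the 1 at the 5′ end of the gene was searched. The windows of Abcb11 at chr2:69172911-69173210 (minus strand), Nr0b2 at chr4:133280437-133280736 (plus strand) and Slc10a1 at chr12:81015430-81015729 (minus strand) are shown 5′ to 3′, because the genes of export, repression and uptake all had a lower mean in female LKO than in female CRE- mice, and capitals mark the motif matches.
Abcb11: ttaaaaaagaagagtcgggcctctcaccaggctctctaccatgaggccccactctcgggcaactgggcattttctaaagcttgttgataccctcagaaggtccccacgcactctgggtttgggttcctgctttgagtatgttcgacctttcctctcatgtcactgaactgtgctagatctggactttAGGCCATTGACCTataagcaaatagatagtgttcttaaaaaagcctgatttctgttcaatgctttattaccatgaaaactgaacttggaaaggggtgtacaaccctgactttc
Nr0b2: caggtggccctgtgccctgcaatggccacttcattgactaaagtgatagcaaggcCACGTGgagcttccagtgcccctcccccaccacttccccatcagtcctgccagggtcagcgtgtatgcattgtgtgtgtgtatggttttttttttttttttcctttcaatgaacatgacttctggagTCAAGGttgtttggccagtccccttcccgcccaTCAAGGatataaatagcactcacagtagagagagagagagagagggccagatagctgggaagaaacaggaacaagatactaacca
Slc10a1: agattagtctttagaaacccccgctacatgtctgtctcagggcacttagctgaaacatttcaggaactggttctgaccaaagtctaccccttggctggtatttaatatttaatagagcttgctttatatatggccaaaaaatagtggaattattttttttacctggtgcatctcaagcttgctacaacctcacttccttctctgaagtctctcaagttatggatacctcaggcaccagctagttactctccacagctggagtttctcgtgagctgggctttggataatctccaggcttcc
A match is a description of the letters and shows neither binding nor a cause of the differences between mice.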

How the data were processed

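RNA was measured by bulk poly-A sequencing of 16 mouse livers. The values are counts of reads per gene as deposited by the authors, who aligned with STAR 2.7.1a to GRCm39 and counted with featureCounts 2.0.6 on a RefSeq annotation. Their command counts each mate of a pair as a read and leaves out reads that map to several places. It counts reads on 1 strand, and whether the kit keeps the strand is not stated in the labels. Totals per liver were 33268424 to 56488920 reads, and counting error at the levels given is small beside the spread between mice.

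Counts were normalized by TMM, filtered by edgeR's default rule with a minimum count of 10, and fitted over 4 groups by edgeR 4.0.16 (quasi-likelihood, limma 3.58.1, R 4.3.3), two-sided. P-values were adjusted over all 16742 genes tested, with a threshold of 0.05. Log2 CPM for correlations used a prior count of 2 and 100000 permutations within groups. Alternatives were RLE and upper-quartile normalization, no filter, at least 10 counts in every library, limma-voom (weighted by sample quality), DESeq2 1.42.0, each sex alone, a replicate block, an adjusted p under 0.1, a prior count of 0.5, and leaving out each mouse. The fit was also run on simulated data, and no result of that run is given or used here. All 16 libraries were used, and no pair of libraries was a duplicate.

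The 9 genes and all lists were chosen with earlier results of these data known. Gcgr and, from the other lists, genes past the threshold in any comparison were named, with the most abundant gene of each list. Results of some listed genes are not reported here. Promoter windows came from the RefSeq table of build GRCm38.p6.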

Additional observations from a re-analysis of the deposited data

Results flagged for a closer look

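In 2 of 36 groups of 4 mice, taken over the 9 genes, 1 mouse lay far from the other 3, and chance marks about 1 in 20 such groups. Cyp7b1 in male LKO replicate 1 was the lowest of its group, with a gap to the next mouse of 0.892 of the group's range. Abcb11 in male LKO replicate 3 was the highest of its group, with a gap of 0.834 of the range.

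The LKO effects on Abcb11 and Nr0b2 differed between the sexes in that every male LKO mouse was above its control mean and every female LKO mouse below it. The difference, female minus male in log2, was -0.90 for Abcb11 and -2.28 for Nr0b2, and neither passed in edgeR (adjusted p = 0.201 and 0.140).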

How the results depend on the processing

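Cyp39a1 in males and averaged over the sexes passed under each of the alternatives and without each mouse in turn. Of 490 values of single genes under settings other than leaving out a mouse, 433 kept direction and side of the threshold, 34 lost the call, 15 gained it and 8 turned sign. Of 1104 values with 1 mouse left out, these numbers were 924, 148, 5 and 27. Where no cause is named, the cause was not tested.

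Of the 9 genes, 1 was called in males, and 2 by limma-voom and 3 by DESeq2. In females 1 was called, and 0 with RLE, with upper-quartile normalization, with no filter or with each sex alone (fewer mice in the fit), 2 by limma-voom, 3 by DESeq2 and 3 at an adjusted p under 0.1. With at least 10 counts in every library it was 1, which was Cyp39a1 in place of Slc10a1. The difference between the sexes had 0 calls, with 1 by limma-voom and 2 by DESeq2. The average had 1 call, with 2 by limma-voom, by DESeq2 and at an adjusted p under 0.1. Between the controls of the sexes 1 was called, with 2 by limma-voom and by DESeq2. Leaving out 1 mouse at a time gave 1 to 2 calls in males, 0 to 2 in females, 0 for the difference, 1 to 2 for the average and 0 to 1 between controls.

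Log2 values that turned sign belonged to results with no call. By limma-voom they were 0.00 for the difference of Cyp7a1 between the sexes, -0.17 for that of Cyp8b1, and for the average -0.04 for Cyp27a1, -0.08 for Nr0b2 and 0.08 for Nr1h4, which was also 0.02 with upper-quartile normalization and 0.01 with at least 10 counts in every library. With 1 mouse left out, the difference between the sexes was -0.19 to 0.46 for Cyp7a1 and -0.22 to 0.56 for Cyp8b1, the average was -0.15 to 0.10 for Cyp27a1 and -0.11 to 0.10 for Nr1h4, the difference between controls was -0.03 to 0.33 for Cyp27a1, and the female change was -0.02 to 0.29 for Cyp7b1. The correlation of Dbp with Cyp7a1 was -0.40 to 0.30.

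The labels number the replicates but do not say that equal numbers pair mice. Correlations between CRE- and LKO mice of equal number were -0.013 to 0.173, above 0.1 in 6 of 8 pairs, and not every mouse correlated best with its own number. With a replicate block within sex 2 of the 9 genes were called in females, Abcb11 and Slc10a1, with 1 in males, 0 for the difference and 1 for the average, and the average of Cyp27a1 was 0.00. The share of all genes called with that block is not given, so these counts cannot be set against it. Under that block Adgre1 and Nr5a2 in females had log2 changes of 1.67 and -0.58 and no call (adjusted p = 0.0614 and 0.0550 by edgeR). Comparison of controls between the sexes was not run with that block. With 4 mice per group, changes as small as those of Cyp7a1 and Cyp8b1 lie within the spread between mice.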
